A study of Mus musculus with 10 samples.

Results

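The transcripts of 32 genes of the centrosome and the microtubule organising centre were followed in mouse oocytes at MII, the metaphase arrest of meiosis that precedes fertilization. The genes were given as a list, and each was represented by its brightest probe set, the one with the highest mean log2 intensity over all arrays among probe sets annotated to that gene alone. All 32 had such a probe set, of 18193 genes that did. For 28 of them it passed the filter on dim probe sets, by exceeding the median of 3 or more of the 10 arrays, and was tested. The brightest probe sets of Tubgcp2, Tubgcp6, Ninl and Cep135 did not.

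The design asks whether maternal mRNAs are concentrated at the meiotic spindle. RNA was taken from 3 kinds of sample, all from B6D2F1 females, an F1 hybrid strain, whose age the labels do not give. The females had received equine chorionic gonadotropin and, 48 h later, 5 IU of human chorionic gonadotropin, and their oocytes were collected 16 h after that and freed of cumulus cells with hyaluronidase. The SCC, short for spindle-chromosome complex, consists of the spindle, its chromosomes and the material removed with them by microsurgery, and was measured on 3 arrays (replicates 1 to 3). The cytoplast, the oocyte left after that removal, was measured on 4 arrays (1 to 4), and the intact MII oocyte on 3 arrays (2 to 4). The titles speak of biological replicates, but name neither the animals nor the pools behind them, so p-values measure only the spread between these samples, which may be technical. A fixed amount of amplified RNA went on each array, so a difference is one of relative level. More copies of a transcript at the spindle and fewer copies of other transcripts there cannot be told apart.

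Most animal cells organise microtubules from centrosomes, pairs of centrioles inside a matrix of pericentriolar proteins. Mouse oocytes lose their centrioles and build the meiotic spindle from acentriolar microtubule organising centres, which carry pericentrin, Cep192 and gamma-tubulin and gather at the spindle poles. Gamma-tubulin ring complexes nucleate microtubules, scaffold proteins recruit them, and other proteins of the list build centrioles, their appendages or the cilium, structures that the MII oocyte lacks.

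The arrays had a median intensity between 15.6 and 16.6 and a 95th percentile between 521 and 788. The background level of an array was set at the 95th percentile of 40 genes specific to other tissues (141 to 244). By that level 13 of the 32 genes were above background on at least 1 array and 8 on all 10, namely Nedd1, Mzt1, Pcm1, Nin, Odf2, Cenpj, Cep70 and Cep164. The pancreatic gene Cpa1 and the B cell gene Ms4a1 were bright on every array and raised the level. Without them, a choice made after seeing the data, the level was 78.1 to 114, with 19 genes above it on at least 1 array and 13 on all. Of 14 listed oocyte marker genes, 12 were measured and 10 of these were above background on all arrays. Of 24 listed cumulus and granulosa markers, 21 were measured, and 19 of them were above background on no array. Their summed intensity was 675 to 834 in the SCC, 616 to 742 in the cytoplast and 636 to 746 in the MII oocyte.

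**Figure D1:**
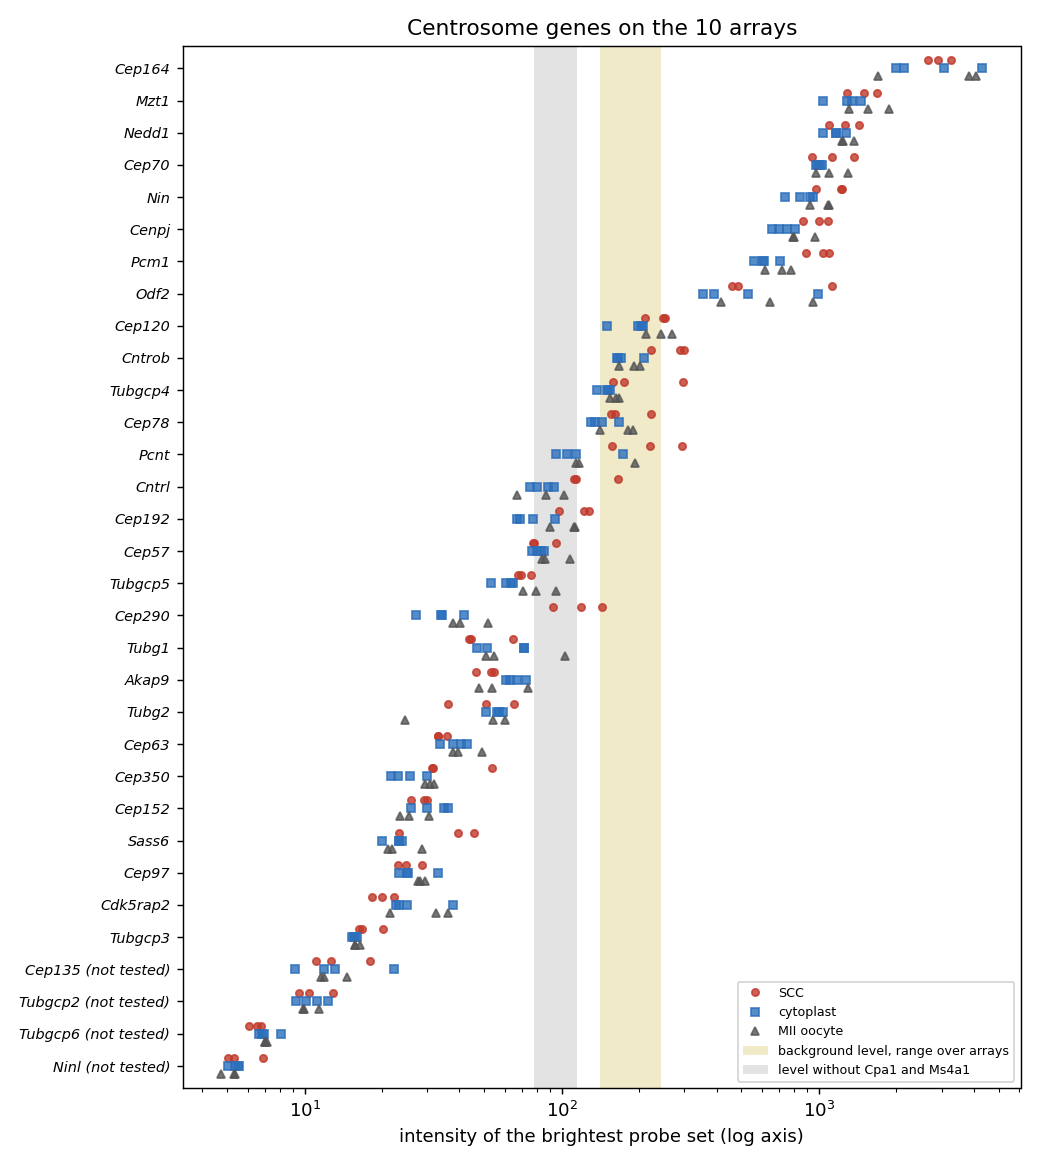
Intensity of the brightest probe set of each of the 32 genes (rows) on each of the 10 arrays, on a log axis. Symbols mark SCC, cytoplast and MII oocyte arrays, and the shaded bands are the range over arrays of the background level (141 to 244) and of the level without Cpa1 and Ms4a1 (78.1 to 114). 8 genes lie above the background level on all arrays, and for Cep290 the 3 SCC points stand clear of the other 7.

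Between the SCC and the cytoplast, 4 centrosome transcripts stood higher in the SCC and 0 stood lower: Cep290, Pcm1, Cntrob and Cep192. Cep290 and Pcm1 showed the clearest differences, and the gamma-tubulin genes were not among the 4. The 4 were 14.3% of the 28 tested genes, beside 8.03% of all 12710 genes taken at their brightest probe set and 6.74% of all 23737 probe sets (limma, adjusted p under 0.05). In the opposite direction the share was 0.275% of all genes and 0.274% of all probe sets. At an unadjusted p under 0.05, 12 of the 28 were higher and 1 was lower. The same threshold was passed by 18.4% of all genes as higher and 3.89% as lower, and by 41.5% and 1.88% of those above background on all arrays. The median log2 difference of the 28 was 0.26, against 0.02 over all genes. Of the 28, 21 (75%) were above 0, beside 54% of all genes and 79% of those above background on all arrays.

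The brighter genes of the whole array shifted the same way, so the list was also read among them. Of 2867 genes above background on all arrays, 20.8% were called higher in the SCC and 0.105% lower, and their median was 0.28. Among the 8 centrosome genes above background on all arrays, 1 (Pcm1) was called, and their median was 0.25. After cyclic loess, which takes out such an intensity-dependent shift, the median of the 28 was 0.13 and that of the 8 bright ones -0.01. Of the 28, 16 were then above 0, beside 47.8% of all genes and 51.7% of the bright ones. Cep290 was then the only one of the 28 called, beside 2.28% of all genes and 4.36% of the bright ones. Quantile normalization gave medians of 0.08 and -0.03 and again 1 call, Cep290, beside 1.9% of all genes and 3.7% of the bright ones. It left 15 of the 28 above 0, beside 44.3% of all genes and 50.3% of the bright ones. The 95th percentile of intensity, a measure of the shift, was 712 ± 86 (SD, n = 3) on SCC arrays and 574 ± 45 (SD, n = 4) on cytoplast arrays (exact two-sided permutation test, p = 0.0571; the smallest possible is 0.0286). The actin control read 3.42 ± 0.20 (SD) higher at its 3' than at its 5' end on the log2 scale on SCC arrays and 4.62 ± 0.69 on cytoplast arrays (exact permutation p = 0.0571). The same measure of the Gapdh control was 2.87 ± 0.48 and 3.17 ± 0.56 (exact permutation p = 0.429), a difference within its spread. The part of the shift and of RNA quality in the result was not tested. The 12 oocyte markers had a median difference of 0.35, with 11 above 0, and 0.092 with cyclic loess and 0.093 with quantile normalization. Of these markers 1 (Dppa3, a maternal-effect gene) was higher in the SCC, at 1.37-fold (adjusted p = 0.0374), and 0 were lower. With cyclic loess 0 passed, and with quantile normalization 0 were higher and 1 was lower. The Dppa3 call was made in 13 of 21 settings and in 5 of the 10 that leave out an array. Of 11 tested cumulus markers 0 passed in either direction (limma; 1 higher and 0 lower at an unadjusted p under 0.05).

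**Figure D2:**
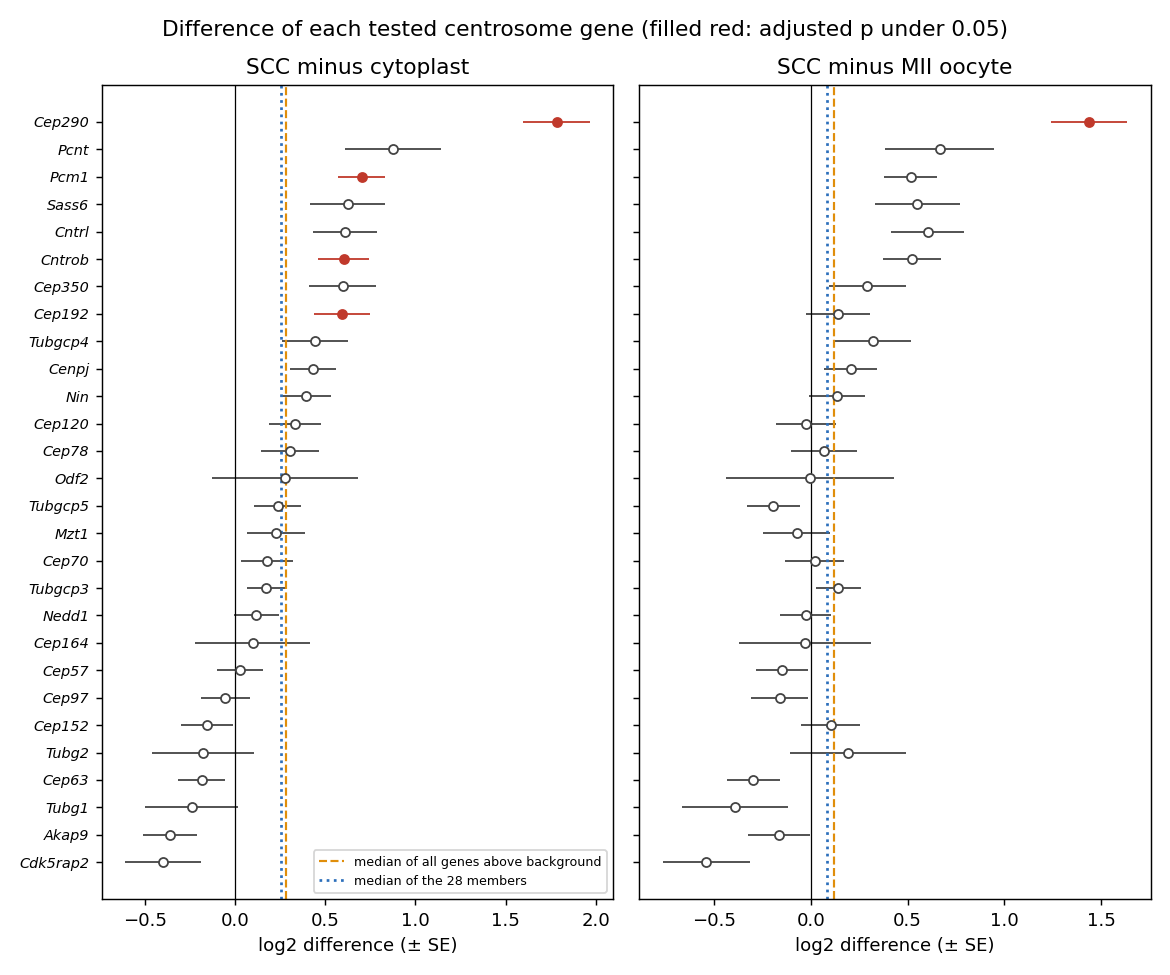
Log2 difference of each of the 28 tested genes with its standard error, for SCC minus cytoplast and SCC minus MII oocyte, with genes in the same order in each panel. Red filled points passed an adjusted p of 0.05, the dotted line is the median of the 28 and the dashed line that of all genes above background. Cep290 lies far to the right in both panels.

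Cep290, a protein of the transition zone of cilia that is also found at centriolar satellites, had the largest difference of the list. Its intensity was 92.4, 144 and 119 on the SCC arrays. On the cytoplast arrays it was 33.9, 34.1, 41.6 and 27.2, and on the MII oocyte arrays 40.4, 51.8 and 37.9. Every SCC array was higher than every other array. The log2 difference from the cytoplast was 1.78 (SE 0.18, adjusted p = 0.00216), and that from the MII oocyte 1.44 (SE 0.20, adjusted p = 0.0319). Cep290 was below the background level on all arrays, so no fold is given by that level. By the lower level it was above it on all 3 SCC arrays and on no other, which makes it at least 1.33-fold higher than in the cytoplast and also at least 1.33-fold higher than in the MII oocyte. The call against the cytoplast was made under all 20 alternative settings, with a log2 difference of 1.41 to 1.95 and an adjusted p of at most 0.0212. The call against the MII oocyte was lost after quantile normalization (adjusted p = 0.0625), with only the 2 groups in the fit (0.168), and without cytoplast 1 (0.0901), cytoplast 2 (0.0788), MII oocyte 2 (0.191), MII oocyte 4 (0.102), SCC 2 (0.195) or SCC 3 (0.170).

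Pcm1 encodes the scaffold of centriolar satellites, the granules that carry proteins to the centrosome. Its intensity was 895, 1098 and 1036 on the SCC arrays, 561, 604, 705 and 611 on the cytoplast arrays and 619, 719 and 780.0 on the MII oocyte arrays. All SCC arrays were above all others, and the cytoplast and MII oocyte arrays overlapped. Pcm1 exceeded its cytoplast level 1.63-fold in the SCC (log2 0.70, SE 0.13, adjusted p = 0.0114). Against the MII oocyte the difference was 0.52 and did not pass (adjusted p = 0.164). The call against the cytoplast was lost after cyclic loess (0.45, adjusted p = 0.105) and quantile normalization (0.39, 0.167), and without SCC 2 (0.0696) or SCC 3 (0.0619). Pcm1 had 4 further kept probe sets, all dim, whose log2 differences were 0.16, 0.40, 0.46 and 0.62, none past the threshold.

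Cntrob encodes centrobin, a protein of daughter centrioles needed for centriole duplication. Its intensity was 222, 287 and 299 on the SCC arrays, 164, 170.0, 165 and 209 on the cytoplast arrays and 192, 201 and 167 on the MII oocyte arrays. Again each SCC array was above all others, by the least for SCC 1. Centrobin RNA exceeded its cytoplast level 1.52-fold in the SCC (log2 0.60, SE 0.14, adjusted p = 0.0278). The call was lost after cyclic loess (0.41, adjusted p = 0.115), after quantile normalization (0.35, 0.189) and with an intensity trend in the variance (0.0544). It was also lost without cytoplast 1 (0.0879), cytoplast 2 (0.0802), cytoplast 3 (0.0615), SCC 2 (0.132) or SCC 3 (0.143).

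Cep192 recruits pericentrin and the kinases Aurka and Plk1 to spindle poles and is part of the acentriolar organising centres. Its intensity was 97.8, 122 and 128 on the SCC arrays, 77.3, 67.2, 94.2 and 69.0 on the cytoplast arrays and 90.0, 111 and 113 on the MII oocyte arrays. The SCC arrays lay above the cytoplast arrays, with SCC 1 only just above cytoplast 3, and overlapped the MII oocyte arrays. The log2 difference from the cytoplast was 0.59 (SE 0.15, adjusted p = 0.0402). All arrays were below the background level, so no fold is given by that level. By the lower level Cep192 was above it on 3 SCC arrays, 1 cytoplast array and 3 MII oocyte arrays. The fold over the cytoplast was then 1.51, with most cytoplast arrays below that level. The Cep192 call was the weakest of the 4. That call was lost after cyclic loess (0.49, adjusted p = 0.0989), quantile normalization (0.45, 0.122), without the filter on dim probe sets (0.0505) and with an intensity trend (0.0559). It was lost as well without cytoplast 1 (0.0993), cytoplast 2 (0.116), cytoplast 4 (0.0748), MII oocyte 4 (0.0515), SCC 2 (0.166) or SCC 3 (0.183).

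**Figure D3:**
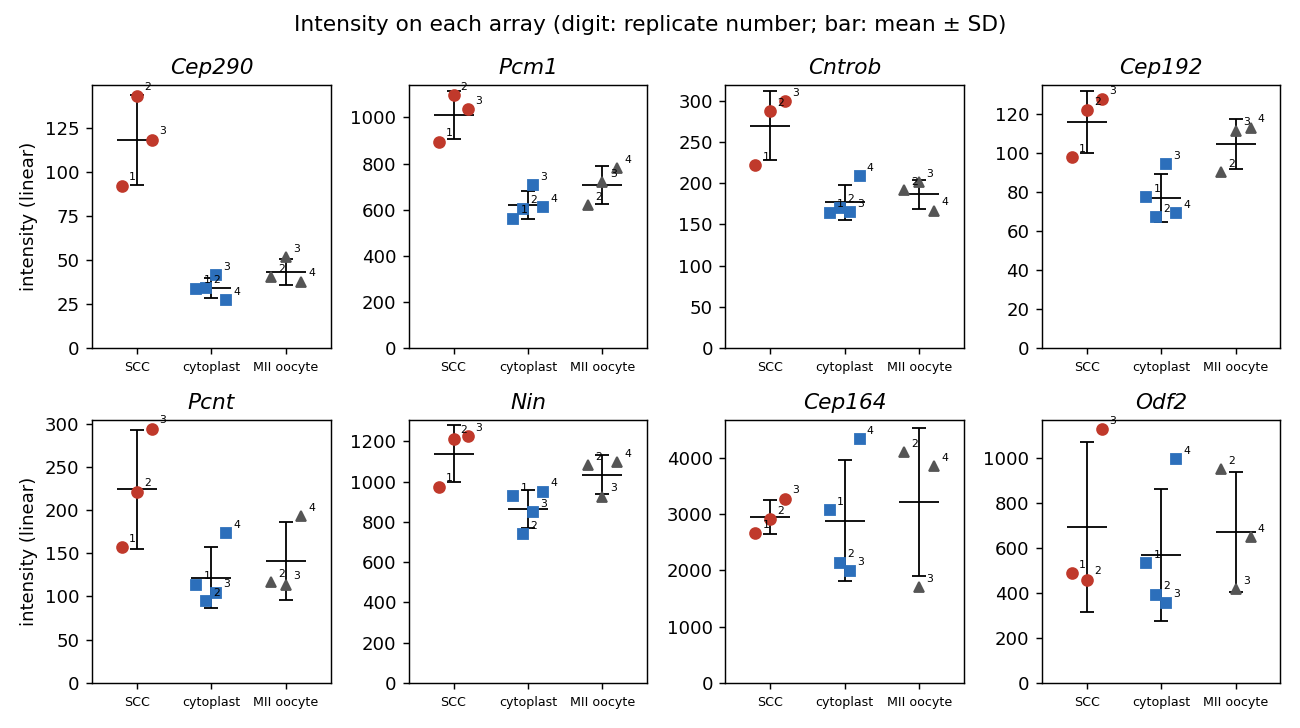
Linear intensity of 8 genes (Cep290, Pcm1, Cntrob, Cep192, Pcnt, Nin, Cep164 and Odf2) on each array, by group, each panel with its own axis from 0. Digits are replicate numbers and bars the mean ± SD. The 3 SCC values of Cep290 (92.4 to 144) lie above all others, whereas the groups of Cep164 and Odf2 overlap fully.

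The gamma-tubulin complex was represented by 9 genes, of which 7 were tested. Of the 7, 0 passed in either direction (limma; 1 higher at an unadjusted p under 0.05). Their median log2 difference between SCC and cytoplast was 0.17. Over all genes 8.03% were called higher, and 18.4% were higher at the unadjusted threshold. Gamma-tubulin itself is encoded by the near-identical neighbouring genes Tubg1 and Tubg2, and whether the probes tell them apart was not tested. Tubg1 had an intensity of 44.6, 43.5 and 64.6 on the SCC arrays, 71.3, 46.8, 51.4 and 71.5 on the cytoplast arrays and 103, 50.7 and 54.4 on the MII oocyte arrays (log2 SCC minus cytoplast -0.24, adjusted p = 0.682). Tubg2 was at 50.6, 65.4 and 36.0 in the SCC, 50.9, 59.1, 57.1 and 56.1 in the cytoplast and 24.5, 54.1 and 60.1 in the MII oocyte (-0.18, adjusted p = 0.797). For both genes the 3 groups overlapped, and all arrays were below background.

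The Tubgcp genes encode the subunits that assemble gamma-tubulin into a ring. Tubgcp4 was at 158, 174 and 296 in the SCC, 155, 137, 149.5 and 151 in the cytoplast and 154, 167 and 162 in the MII oocyte (log2 SCC minus cytoplast 0.44, SE 0.18, adjusted p = 0.193). Most of that difference came from SCC 3, and the other kept probe set of Tubgcp4 had the opposite sign (-0.41, adjusted p = 0.116). Tubgcp5 was at 67.6, 76.3 and 69.5 in the SCC, 53.3, 63.4, 64.6 and 60.6 in the cytoplast and 70.5, 79.8 and 95.4 in the MII oocyte (0.24, adjusted p = 0.347). Tubgcp3 was near the array median throughout, at 20.1, 16.7 and 16.2 in the SCC, 15.3 to 16.02 in the cytoplast and 15.7 to 16.4 in the MII oocyte (0.17, adjusted p = 0.427). For these 3 genes every SCC array exceeded every cytoplast array without the difference passing the test. Tubgcp2 (9.29 to 12.9) and Tubgcp6 (6.06 to 8.06) were below the median on all arrays and have no test.

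Nedd1 and Mzt1 attach the ring complex to spindle poles and organising centres, and both were well above background. Nedd1 was at 1095, 1439 and 1259 in the SCC, 1275, 1037, 1169 and 1162 in the cytoplast and 1244, 1233 and 1369 in the MII oocyte. These ranges overlapped, with a log2 difference of 0.12 between SCC and cytoplast (SE 0.12, adjusted p = 0.677) that was -0.16 with cyclic loess and -0.17 with quantile normalization. Mzt1 was at 1289, 1687 and 1499 in the SCC, 1341, 1035, 1283 and 1456 in the cytoplast and 1870.4, 1307 and 1556 in the MII oocyte (0.22, adjusted p = 0.497, but -0.054 with cyclic loess and -0.068 with quantile normalization). The other probe sets of Mzt1 differed more. The second was at 977, 1035 and 1203 in the SCC and 616 to 805 in the cytoplast (0.57, adjusted p = 0.0571). The third, below background, was at 118, 139 and 126 in the SCC, 75.3, 75.01, 86.4 and 70.9 in the cytoplast and 121, 111 and 106 in the MII oocyte, and it passed (0.73, SE 0.11, adjusted p = 0.00637). For that probe set the SCC and MII oocyte arrays overlapped, and the cytoplast arrays were below both.

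Among the 7 pericentriolar scaffold genes only Cep192 passed, and the median difference was -0.15, with 3 of 7 above 0. Beside this, 8.03% of all genes were called higher and 54% were above 0. Pericentrin (Pcnt), the main scaffold of the organising centre, was at 157, 221 and 294 in the SCC, 114, 94.9, 105 and 173 in the cytoplast and 117, 114 and 193 in the MII oocyte. SCC 2 and 3 were the highest of all arrays, and SCC 1 fell below cytoplast 4. The difference from the cytoplast was 0.88 (SE 0.26, adjusted p = 0.0724). It passed without SCC 1, without cytoplast 4, with the replicate number as a block and with the hybridisation control level as a covariate (adjusted p = 0.00774). A dimmer second probe set of Pcnt gave 0.0031 (adjusted p = 0.995).

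Cdk5rap2, which activates the ring complex at the pericentriolar matrix, had the lowest difference of the list. It was at 20.0, 22.3 and 18.3 in the SCC, 37.7, 23.2, 22.6 and 25.04 in the cytoplast and 32.45, 21.5 and 36.1 in the MII oocyte. All SCC arrays were below all cytoplast arrays, by little for 3 of the 4, and the test was not passed (-0.40, SE 0.21, adjusted p = 0.327). The anchoring protein gene Akap9 also had its SCC arrays (46.2 to 54.3) below its cytoplast arrays (60.8 to 72.5), at -0.36 (adjusted p = 0.200). The other scaffold genes lay closer to 0: Cep152 and Cep63, which hold the platform for new centrioles, at -0.15 and -0.19, and Cep57 at 0.03. Cep57 was at -0.055 with cyclic loess and -0.082 with quantile normalization.

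Of 8 genes of centriole assembly, 7 were tested, 6 had a positive difference and 1, Cntrob, passed (median 0.33). Positive differences were found in 54% of all genes and 79% of those above background on all arrays. Calls as higher made up 8.03% and 20.8%. Cenpj, which sets centriole length, was at 869, 1001 and 1088 in the SCC, 750.3, 660.3, 701 and 807 in the cytoplast and 804, 796 and 965 in the MII oocyte. Its SCC arrays were above its cytoplast arrays, at a log2 difference of 0.43 (SE 0.13, adjusted p = 0.0653). Sass6, which forms the cartwheel of a new centriole, was at 23.3, 39.5 and 45.7 in the SCC and 20.0 to 23.9 in the cytoplast, a difference carried by SCC 2 and 3 (0.62, adjusted p = 0.101). Cep120, a partner of Cenpj, was at 209.97, 253 and 248 in the SCC and 206, 203, 199 and 149 in the cytoplast (0.33, adjusted p = 0.226). Cep78 (0.30) and Cep97 (-0.06) had overlapping groups. So had Cep70 (0.18, but -0.093 with cyclic loess and -0.13 with quantile normalization).

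Of 7 genes of centriole appendages and cilia, 6 were tested. All 6 had a positive difference as reported, with a median of 0.50, and Cep290 was the only one that passed. Over all genes 54% were positive and 8.03% were called higher. Among genes above background on all arrays 79% were positive, with a median of 0.28, and 20.8% were called higher. Cep164 was negative after cyclic loess, and Cep164 and Odf2 were after quantile normalization. Ninein (Nin), which anchors microtubule minus ends, was at 975, 1214 and 1228 in the SCC, 927, 739, 847 and 949 in the cytoplast and 1082, 925 and 1098 in the MII oocyte. The SCC arrays were above the cytoplast arrays, SCC 1 by little (0.39, SE 0.13, adjusted p = 0.110), a second probe set gave 0.94 (SE 0.26, adjusted p = 0.0519) and another, dim one 0.059 (SE 0.19, adjusted p = 0.913). Centriolin (Cntrl), a protein of the mother centriole and the midbody, was at 111, 113 and 166 in the SCC, 75.3, 93.2, 88.3 and 80.2 in the cytoplast and 87.1, 102 and 67.0 in the MII oocyte. All SCC arrays exceeded the other 7 (0.61 against the cytoplast, SE 0.18, adjusted p = 0.0653), but its other probe set gave -0.25 (adjusted p = 0.285). Cep350 was at 31.3, 31.6 and 53.6 in the SCC and 21.7 to 29.9 in the cytoplast (0.60, adjusted p = 0.0837), with SCC 3 the highest.

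Odf2 and Cep164, which build the appendages of the mother centriole, varied most between arrays of one group. Odf2 was at 487, 459 and 1127 in the SCC, 531, 393, 356 and 994 in the cytoplast and 949, 417 and 647 in the MII oocyte. Cep164 was at 2661, 2904 and 3274 in the SCC, 3068, 2139, 1997 and 4328 in the cytoplast and 4101, 1705 and 3851 in the MII oocyte. For both genes the highest 4 arrays were SCC 3, cytoplast 4 and MII oocyte 2 and 4. On those arrays the controls spiked in at hybridisation had a mean log2 level of 10.88 to 11.08, against 9.62 to 10.42 on the other 6, and their part in these values was not tested. The log2 differences were 0.28 for Odf2 (SE 0.41, adjusted p = 0.780) and 0.10 for Cep164 (SE 0.32, adjusted p = 0.914). With the control level as a covariate they were 0.34 (adjusted p = 0.297) and 0.14 (0.695), and for Cep164 -0.21 with cyclic loess and -0.20 with quantile normalization.

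Separation of the arrays was more frequent than calls. In 12 of the 28 genes every SCC array exceeded every cytoplast array, as in 15.5% of all genes. Of genes above background on all arrays 33.1% did so, and of the 8 centrosome genes at that level 3 did. The 12 were Cep290, Pcm1, Cntrob, Cep192, Cenpj, Cntrl, Nin, Cep350, Cep120, Tubgcp3, Tubgcp4 and Tubgcp5. Among them Cep290, Cep192, Cntrl, Cep350, Tubgcp3 and Tubgcp5 were below background on all arrays. In 2 genes, Cdk5rap2 and Akap9, every SCC array was lower (5.86% of all genes). Leaving out 1 array moved the count of called genes between 1 and 7. It was 1 without SCC 2 or without SCC 3, leaving Cep290, 2 without cytoplast 1 or cytoplast 2 (Cep290 and Pcm1), and 7 without SCC 1.

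**Figure D4:**
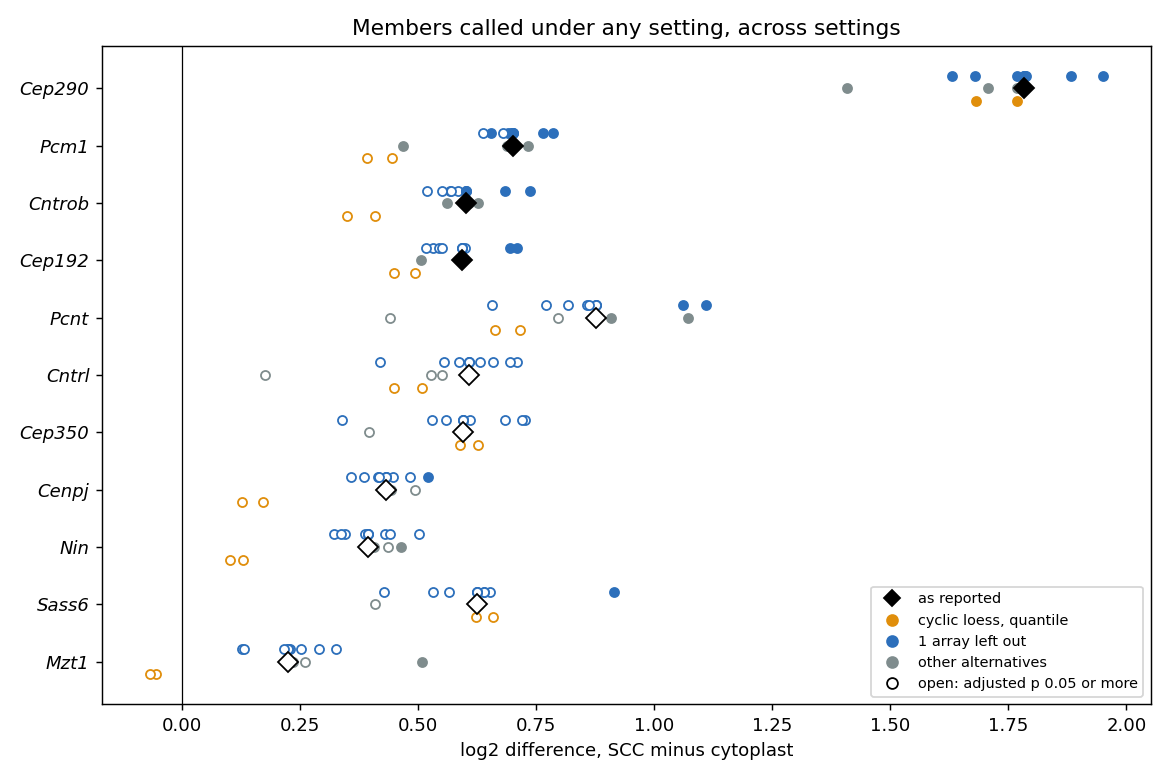
Log2 difference between SCC and cytoplast of the 11 genes that passed under at least 1 setting, with 1 point for each setting. The diamond is the reported value, orange points are the normalizations, blue points leave out 1 array and open symbols have an adjusted p of 0.05 or more. The points of Cep290 are all filled (1.41 to 1.95), and those of the other 10 genes are a mix of filled and open.

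Several probe sets, 2 to 5 each, were kept for 12 genes. In 5 of these genes all probe sets had a positive SCC minus cytoplast difference, and in 2 all were lower. In 5 more (Tubgcp4, Odf2, Cep70, Cntrl and Cep164) the signs were mixed. Whether the probe sets of a gene differed beyond their spread was not tested. Of the 48 kept probe sets of the list, 5 passed as higher and 0 as lower, and the fifth, beside those of the 4 genes above, was the third probe set of Mzt1. Cep290, Cntrob and Cep192 each had a single kept probe set, so no second measurement of them was at hand.

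**Figure D5:**
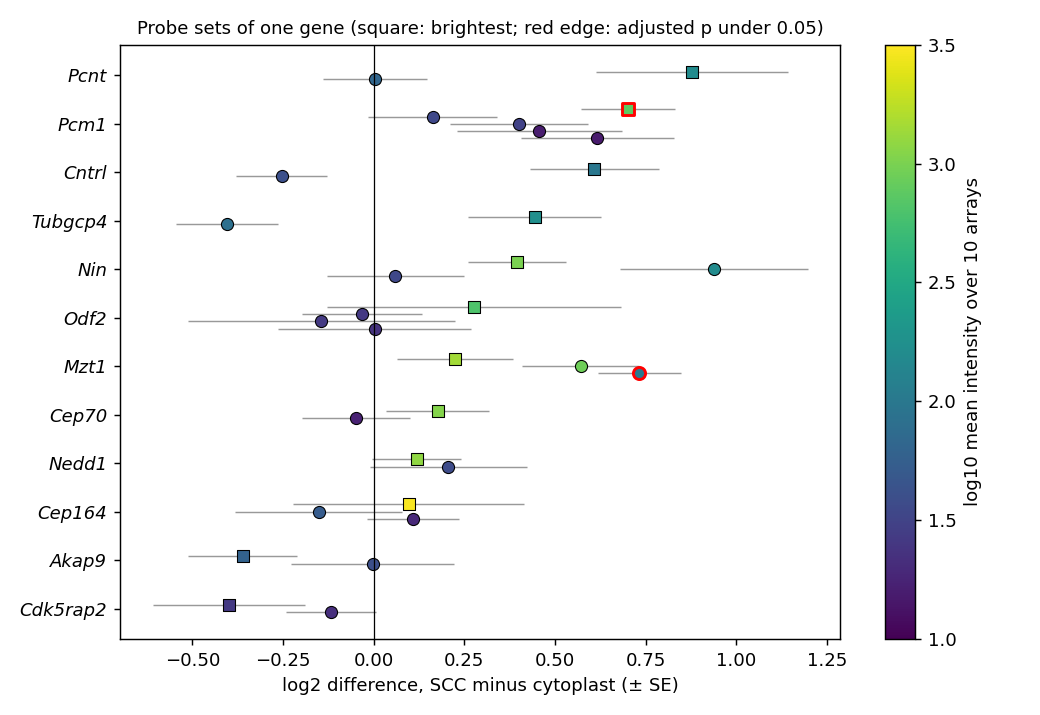
Log2 difference between SCC and cytoplast (± SE) of every kept probe set of the 12 genes that have more than 1. Squares are the brightest probe set of the gene and a red edge marks an adjusted p under 0.05. The 3 probe sets of Mzt1 spread from 0.22 to 0.73, and both signs occur within 5 genes.

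Against the intact oocyte, Cep290 was the single gene of 28 higher in the SCC, beside 0.0472% of all genes and 0.0421% of all probe sets, and 0 were lower (limma; 6 higher and 1 lower at an unadjusted p under 0.05, which 9.45% and 3.83% of all genes passed). The median difference was 0.08, with 16 of 28 above 0. Among all genes above background on all arrays, 20.3% were higher and 2.51% lower at that unadjusted threshold. Of those genes 65.1% were positive, with a median of 0.12. The SCC arrays lay wholly above the MII oocyte arrays for Cep290, Pcm1, Cntrob and Cntrl (9.14% of all genes) and wholly below for Cep63 (5.27% of all genes). Cntrob differed by 0.52 (adjusted p = 0.184) and Cntrl by 0.60 (adjusted p = 0.216). Pcnt stood 0.66 higher (adjusted p = 0.375), Cep192 0.14 higher (adjusted p = 0.808) and Cdk5rap2 at -0.54 (adjusted p = 0.358), none of them past the threshold.

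Between the cytoplast and the intact oocyte, 0 of 28 genes passed in either direction (limma; 0 higher and 3 lower at an unadjusted p under 0.05, which 0.928% and 3.75% of all genes passed), as did 0% of all genes and of all probe sets. The median difference was -0.15, and 25 of the 28 were negative. Over all genes 35.9% were positive, and among those above background on all arrays 11.4% were, with a median of -0.18. Of the latter genes 7.39% were lower at an unadjusted p under 0.05. The cytoplast arrays lay wholly below the MII oocyte arrays for Tubgcp5 (-0.43, adjusted p = 0.926) and Cep120 (-0.36, adjusted p = 0.926), as in 4.5% of all genes. Cep192 was at -0.45 (adjusted p = 0.926). The comparisons share arrays with each other, so their values are not independent.

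Other genes of the same structures were read from 4 further lists. Of 44 other centrosome, centriole and satellite genes, 39 were tested, and 7 stood above the cytoplast in the SCC and 0 below it, with a median of 0.05. Over all genes 8.03% were called higher and 0.275% lower. Among genes above background on all arrays 20.8% were called higher. Plk4, the kinase that starts centriole duplication, was at 6104, 7935 and 8415 in the SCC, 4936, 4336, 5088 and 4538 in the cytoplast and 5268, 5861 and 5734 in the MII oocyte, 1.57-fold higher than in the cytoplast (adjusted p = 0.0148). Cetn3, a centrin of the centriole, was at 67.6, 86.1 and 137 in the SCC and 33.6 to 44.3 in the cytoplast, below background on all arrays (log2 1.24, SE 0.22, adjusted p = 0.0101). Its relative Cetn2 was at 96.4, 166 and 249.8 in the SCC and 28.9 to 67.3 in the cytoplast (log2 1.78, SE 0.42, adjusted p = 0.0286), above background on 1 SCC array.

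The other 4 called genes of that list exceeded the background level in every SCC and cytoplast sample. They were Cep44 (1.54-fold, adjusted p = 0.0134), the midbody gene Cep55 (1.497-fold, 0.0223), Ccp110, which caps centrioles (1.38-fold, 0.0280), and Cep83, an appendage gene (1.56-fold, 0.0414). With either cyclic loess or quantile normalization 1 of the 7 passed, Cetn3 (adjusted p = 0.0220 and 0.0222), which also passed whichever array was left out. The count for the list was 1 without SCC 2 or without SCC 3, 3 without cytoplast 1 and 4 without cytoplast 2.

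Of 9 tested kinases and regulators of the poles, Plk4 alone was higher and 0 were lower (median -0.09). Over all genes 8.03% were called higher and 0.275% lower, and 20.8% of those above background on all arrays were called higher. Aurka, the kinase that activates the organising centres, was at 219, 242 and 268 in the SCC, 212, 190.3, 152 and 314 in the cytoplast and 306, 185 and 293 in the MII oocyte, with fully overlapping groups (log2 0.21, adjusted p = 0.699, but -0.033 after quantile normalization). Plk1, which readies the pericentriolar matrix for division, was below background on all arrays (35.8, 33.6 and 46.2 in the SCC and 30.3 to 34.7 in the cytoplast; 0.23, adjusted p = 0.431). Of 10 genes of the liquid-like spindle domain and pole focusing, 0 passed (limma; 2 higher and 1 lower at an unadjusted p under 0.05), with a median of 0.14, which was -0.0033 after quantile normalization. At that unadjusted threshold 18.4% of all genes were higher and 3.89% lower.

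Of 8 transcripts known to sit at centrosomes in other cells, 3 of them (Pcnt, Nin and Cep350) also in the list of 32, 0 passed (limma; 5 higher and 0 lower at an unadjusted p under 0.05). The exception in sign was Hmmr, a spindle protein gene whose arrays varied widely (67.5 to 527 in the SCC and 276 to 1562 in the cytoplast; -1.71, SE 0.81, adjusted p = 0.269). The other 7 were positive, and the median of the 8 was 0.41 (0.27 with cyclic loess and 0.24 with quantile normalization). Among all genes above background on all arrays 79% were positive, with a median of 0.28. At an unadjusted p under 0.05, 41.5% of those genes and 18.4% of all genes were higher. With the replicate number as a block 3 of the 8 were called higher, with the hybridisation controls as a covariate 4 were called higher and 1 lower, and 2 were called higher without cytoplast 4 or without SCC 1. Without MII oocyte 4, with only the 2 groups compared or with the stricter filter on dim probe sets, 1 was. None of the genes of these 4 lists passed against the MII oocyte. At an unadjusted p under 0.05 in that comparison, 4 of the 39 centrosome genes, 2 of the 9 kinases, 0 of the 10 spindle domain genes and 1 of the 8 centrosomal transcripts were higher. So were 9.45% of all genes and 20.3% of those above background on all arrays. Plk4 is in both the centrosome and the kinase list.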

How the data were processed

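The deposited table gives linear intensity for 45101 probe sets on 10 one-colour arrays. The submitters' processing notes name RMA, a method of background correction, normalization and probe summary. Its version and settings were not given in the sources read. The deposited values are linear, and their 95th percentile still differed between arrays (521 to 788). How far they had been normalized was not tested. Per the labels' protocols, at most 50 ng of total RNA was amplified in 2 rounds, and 10 µg of labelled cRNA were hybridised.

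The log2 of each value was taken. Control probe sets were left out, and 23737 probe sets that exceeded the median of 3 or more arrays were kept. A model with group means over all 10 arrays was fitted in limma 3.58.1 (R 4.3.3), with default eBayes and Benjamini-Hochberg adjustment over the 23737 (threshold 0.05). On simulated data this recovered 67% of changes of log2 size 1 and 97% of size 2 between SCC and cytoplast. Of 180 calls there, 16 were false. The simulated noise was independent between probe sets and held no intensity-dependent shift, and as many probe sets were raised as lowered. These rates therefore need not hold for the real arrays, and smaller changes were not simulated. Gene names came from the platform annotation (34945 probe sets with 1 gene, 932 with several, 9160 with none), and 34741 matched the RefSeq gene table of GRCm38.p6.

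The 32 genes and the other lists were chosen with earlier results of these data known. Values per array are given for genes past the threshold, for the microtubule nucleators and pole core, for the lowest and highest difference, and for further genes picked after their values were seen. Of the other lists, called genes and Aurka, Plk1 and Plk4 are named. A fold is given only where a group was above background. Alternatives varied the normalization, filter, samples, covariates, offset, variance trend, probe set rule and arrays.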

Additional observations from a re-analysis of the deposited data

Results flagged for a closer look

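In 3 of 32 genes, 1 of the 4 cytoplast arrays stood apart from the other 3 by more than Dixon's 95% critical value (gap over range). Chance flags about 1 in 20 groups. Cep120 was low on cytoplast 4, with a log2 intensity of 7.22 (gap over range 0.881). Cntrob was high on the same array, at 7.70 (0.853), which is the cytoplast value nearest to those of the SCC. Sass6 was low on cytoplast 2, at 4.32 (0.849). The SCC and MII oocyte groups have 3 arrays each and were not examined in this way.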

How the results depend on the processing

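Of the 4 genes called between SCC and cytoplast, 1 remained after cyclic loess (Cep290), 1 after quantile normalization (Cep290) and 2 with an intensity trend (Cep290 and Pcm1). The count was 9 with the hybridisation controls as a covariate, 7 with the mean of a gene's probe sets and 1 to 7 with 1 array left out. With the replicate number as a block it was 6, but the labels do not say that numbers pair samples, and residuals of same-numbered arrays correlated at 0.0214 on average over 8 pairs (-0.304 to 0.614). Those of differently numbered arrays correlated at -0.0099 on average over 25 pairs (-0.528 to 0.404). Against the MII oocyte the count of 1 became 0 after quantile normalization, 0 with only 2 groups in the fit, and 0 to 1 with 1 array left out. The cause of these changes was not tested. The number above background on all arrays was 13 by the lower level.

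Among the differences between SCC and cytoplast, none that changed sign had passed as reported. After cyclic loess they were Nedd1 (-0.16), Mzt1 (-0.054), Cep70 (-0.093), Cep57 (-0.055), Cep164 (-0.21) and Aspm (-0.043). After quantile normalization they were Nedd1 (-0.17), Mzt1 (-0.068), Cep70 (-0.13), Cep57 (-0.082), Cep164 (-0.20), Odf2 (-0.00033) and Aurka (-0.033), and Bicd2, at 0.80 as reported, was at -0.19 by the mean of its probe sets. With 1 array left out, Tubg2 ranged from -0.39 to 0.046, Odf2 from -0.14 to 0.59, Cep57 from -0.069 to 0.079, Cep164 from -0.056 to 0.32, Cep97 from -0.14 to 0.051 and the hybridisation controls from -0.502 to 0.16.

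3 or 4 arrays a group, 24 members not above background on every array and single probe sets limit the precision, and a gene that did not pass is not shown to be equal between groups.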
